A study of Mus musculus with 12 samples.

Results

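Of the 53700 mouse genes counted in whole hearts, 45 are genes of the cell division cycle, and their levels are described here in each heart. The members are a list of gene names for S phase, mitosis and cyclins, with no threshold on a measured value. The libraries came from whole hearts, 6 from ac-WT and 6 from ac-CYB5R3-KO mice. Both groups carried Myh6-CreERT2, a Cre recombinase that cardiomyocytes make and that tamoxifen switches on, and both received tamoxifen at 33 mg/kg per day for 5 days, at 10 to 13 weeks of age. The Cyb5r3 alleles were wild-type (CYB5R3wt/wt) in ac-WT mice and floxed (CYB5R3fl/fl) in ac-CYB5R3-KO mice, and hearts were taken 5 days after treatment. Mice of the experiment were male, and no group received a vehicle in place of tamoxifen. Because Cre acts only in cardiomyocytes, the other cells of an ac-CYB5R3-KO heart keep the Cyb5r3 gene. All 45 members had at least 10 counts in every library and passed the filter on low counts that 17847 genes passed.

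A cell enters the cycle when D-type and E-type cyclins, with their kinases, switch off the RB family of repressors and free the E2F factors, which turn on genes for DNA replication. Cyclin A, cyclin B and CDK1 then drive S phase and mitosis, and the anaphase-promoting complex (APC/C) ends mitosis by marking proteins such as the B-type cyclins for degradation. In the adult mammalian heart most cardiomyocytes have left the cycle, while endothelial cells, fibroblasts and blood cells can still divide. In RNA from whole tissue, fewer cells of a type and less RNA per cell cannot be told apart, and the cell type that a transcript came from is not known.

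Between 43393183 and 53754284 counts were assigned to genes per library. Cyb5r3 itself was lower in every ac-CYB5R3-KO heart (42.0 to 67.4 CPM) than in every ac-WT heart (81.9 to 185 CPM). Levels here are CPM, the counts of a gene per 1000000 counts of its library, scaled with the trimmed mean of M values (TMM), which assumes that most genes do not differ between libraries. The libraries of ac-WT mice 2 and 3 stood apart, with TMM factors of 0.570 and 0.723 against 0.988 to 1.22 in the other 10. Below, the counts of members past a p threshold, the spread within the group and some of the other cell cycle genes are given with and without them. Markers of cardiomyocytes, the cells that define the labelled tissue, were abundant, and a list of 11 that includes Myh6 and Tnnt2 summed to between 18345 and 56646 CPM in each heart. The 45 members together held 0.0147% to 0.0509% of a library's counts in the ac-WT group and 0.0370% to 0.0639% in the ac-CYB5R3-KO group.

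The cell cycle genes had mostly higher fitted means in ac-CYB5R3-KO hearts, but no single member's difference stood out from the spread between mice. Of the 45 members, 44 had a higher fitted mean in ac-CYB5R3-KO hearts and 1, Cenpf, a lower one, beside 8708 higher and 9139 lower of all 17847 genes tested. The median log2 fold change was 0.46 over the members and -0.0074 over all genes tested. No member passed the test after adjustment. In edgeR's quasi-likelihood test, 0 members had a Benjamini-Hochberg adjusted p under 0.05 (lowest 0.335), against 18 of all genes, or 0.101%. One member, Rrm2, had an unadjusted p under 0.05, which is 1 of 45 beside 4.91% of all genes that were higher at this threshold. No member was lower at that threshold, which 9.73% of all genes were. DESeq2 and limma-voom also gave 0 members with an adjusted p under 0.05, where 455 of 34931 and 2 of 17847 genes had one. Each gave 4 members with an unadjusted p under 0.05, where 3.38% of 34931 genes were higher by DESeq2 and 5.87% of 17847 by limma-voom. The levels of the groups overlapped for all 45 members, whereas 1.55% of all genes did not overlap.

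**Figure D1:**
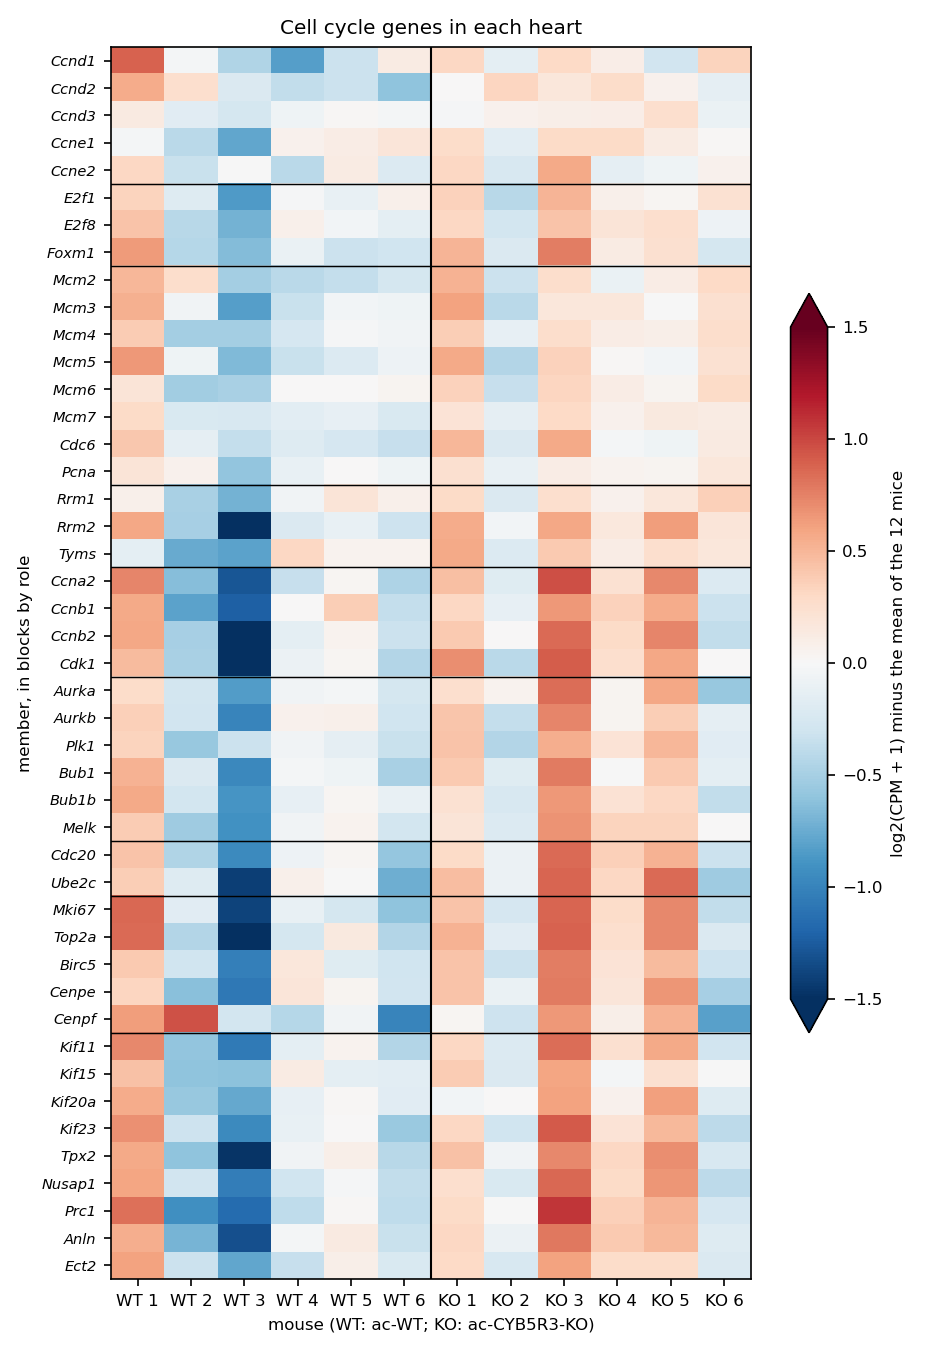
Levels of the 45 cell cycle genes (rows, in blocks by role) in each of the 12 hearts (columns), as log2(CPM + 1) minus the gene's mean over the 12 mice. Red is above and blue below the gene's mean. Mouse 1 stands out as high and mouse 3 as low among the ac-WT hearts, and mouse 3 as high among the ac-CYB5R3-KO hearts.

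The same few mice set the range of most members. Mouse 1 had the highest level of the ac-WT group for 41 of 45 members, and mouse 3 the lowest for 38. In the ac-CYB5R3-KO group, mouse 3 was highest for 31 members, and mouse 2 or mouse 6 was lowest for 23 and 21. The lowest ac-CYB5R3-KO heart lay above the lowest ac-WT heart for 45 of 45 members, and the median ac-CYB5R3-KO heart above the median ac-WT heart for 45 as well. The highest ac-CYB5R3-KO heart lay above the highest ac-WT heart for 39 members. The groups thus shared most of their upper range, which in ac-WT hearts was mostly set by mouse 1. The low end was held by ac-WT hearts, mostly by mouse 3. Without ac-WT mice 2 and 3 the order at the low end differed between members. The lowest of the other ac-WT hearts lay above the lowest ac-CYB5R3-KO heart for Aurka (1.82 against 1.28 CPM). For Rrm2 it lay below (4.70 against 5.92 CPM). All counts in this paragraph were taken with ac-WT mice 2 and 3 included.

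Levels varied more among the 6 ac-WT than among the 6 ac-CYB5R3-KO hearts, a difference that rested on ac-WT mice 2 and 3. The highest ac-WT heart held 1.33 to 8.49 times the level of the lowest (median 3.67 times), and the highest ac-CYB5R3-KO heart 1.28 to 3.92 times (median 2.33 times). The narrowest ac-WT range was that of Ccnd3 and the widest that of Top2a. The SD on the log2(CPM + 1) scale was larger in ac-WT hearts for 41 members (91.1%), as it was for 78.9% of all genes tested. Among the 4 ac-WT hearts other than mice 2 and 3, the highest held 1.15 to 3.88 times the level of the lowest (median 2.07 times), and the SD was the larger for 24 members (53.3%), beside 57.6% of all genes.

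The G1 cyclins, which partner CDK4, CDK6 and CDK2 to start the cycle, had the lowest median log2 fold change of the 9 roles (0.19). Ccnd3, Ccnd2 and Ccnd1 code for the D-type cyclins and had, with the replication clamp Pcna, the highest levels of all members per kilobase of exon. Ccnd3, the highest, had 14.3 ± 1.44 CPM per kilobase in ac-WT and 15.6 ± 1.33 in ac-CYB5R3-KO hearts (SD, n = 6). Its CPM ran from 27.9 over a median of 32.6 to 37.2 in ac-WT and from 31.3 over 35.4 to 40.1 in ac-CYB5R3-KO hearts. These ranges overlapped over most of their length, and the log2 fold change was 0.12 (SE 0.09, adjusted p = 0.542). The E-type cyclins Ccne1 and Ccne2 were far less abundant, at 0.555 ± 0.215 and 0.325 ± 0.120 CPM per kilobase in ac-WT hearts. Ccne1 had the smallest p of the 5 cyclins, with 0.555 to 2.03 CPM (median 1.69) in ac-WT and 1.39 to 2.26 CPM (median 2.06) in ac-CYB5R3-KO hearts. On the log2 scale the difference was 0.39 (SE 0.27, edgeR p = 0.168, two-sided exact permutation p = 0.132), and ac-WT mice 2 (1.01 CPM) and 3 (0.555 CPM) lay below the lowest ac-CYB5R3-KO heart. Without both, the log2 fold change was 0.11. The other log2 fold changes of the cyclins were 0.12 (Ccnd1), 0.19 (Ccnd2) and 0.31 (Ccne2).

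E2f1 activates replication genes, E2f8 represses them again as the cycle proceeds, and Foxm1 activates the genes of G2 phase and mitosis. All had higher fitted means in ac-CYB5R3-KO hearts, by 0.31, 0.40 and 0.45 on the log2 scale, with unadjusted p of 0.130 or more. Foxm1 ran from 2.30 over 3.21 to 7.09 CPM in ac-WT and from 3.34 over 4.89 to 7.85 CPM in ac-CYB5R3-KO hearts. The top ac-WT value came from mouse 1, and the next ac-WT heart had 3.86 CPM. E2f1 had the highest level of these factors per kilobase, 0.920 ± 0.303 in ac-WT and 1.15 ± 0.305 CPM per kilobase in ac-CYB5R3-KO hearts.

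Mcm2 to Mcm7 form the helicase that opens DNA at origins, Cdc6 helps to load it, and Pcna is the sliding clamp of the polymerases. Their log2 fold changes lay close together for the helicase, between 0.24 (Mcm5) and 0.34 (Mcm4), with 0.53 for Cdc6 and 0.16 for Pcna. Mcm7 had the smallest p of these 8 genes. Its CPM ran from 6.44 over 6.69 to 9.71 in ac-WT and from 6.98 over 8.64 to 9.79 in ac-CYB5R3-KO hearts. In 5 of 6 ac-WT hearts the level was at most 7.06 CPM, and mouse 1 alone lay above the ac-CYB5R3-KO median. The hearts differed by 0.25 on the log2 scale (SE 0.12, unadjusted p = 0.0618, adjusted p = 0.363, two-sided exact permutation p = 0.0541). Pcna was the most abundant of them per kilobase, with 11.7 ± 2.04 in ac-WT and 13.0 ± 1.12 CPM per kilobase in ac-CYB5R3-KO hearts, and Cdc6 the least so of all 45 members in ac-WT hearts (0.210 ± 0.0889).

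Rrm1 and Rrm2 are the large and small subunits of ribonucleotide reductase, which makes deoxyribonucleotides, and Tyms makes thymidylate. Rrm2 had the smallest p of all members. It ran from 1.50 over 4.91 to 9.61 CPM in the ac-WT group and from 5.92 over 8.24 to 9.92 CPM in ac-CYB5R3-KO hearts. Each ac-CYB5R3-KO heart lay above 5 of the 6 ac-WT hearts, and ac-WT mouse 1 lay among the highest ac-CYB5R3-KO hearts. The fitted difference was 0.67 on the log2 scale (SE 0.31), or 1.59-fold (95% interval 1.01 to 2.52), with an unadjusted p = 0.0474, an adjusted p = 0.335 and a two-sided exact permutation p = 0.0281. Rrm1 was more abundant per kilobase (4.03 ± 0.990 in ac-WT, 4.93 ± 0.693 in ac-CYB5R3-KO hearts) and differed by 0.29 on the log2 scale (SE 0.16). Tyms differed by 0.43 (SE 0.22, adjusted p = 0.373).

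The cyclins of S phase and mitosis and their kinase Cdk1 had a median log2 fold change of 0.66. Cdk1 ran from 2.41 over 7.21 to 12.6 CPM in ac-WT and from 6.40 over 12.2 to 17.3 CPM in ac-CYB5R3-KO hearts. Mice 1, 3 and 5 of the ac-CYB5R3-KO group lay above every ac-WT heart, and ac-WT mouse 1 above the remaining ac-CYB5R3-KO hearts. On the log2 scale the difference was 0.69 (SE 0.32, adjusted p = 0.343, two-sided exact permutation p = 0.0671). Ccnb2, a B-type cyclin, was the most abundant of them per kilobase (2.61 ± 1.41 in ac-WT, 4.14 ± 1.45 CPM per kilobase in ac-CYB5R3-KO hearts) and differed by 0.66 (SE 0.37). Ccna2, cyclin A, differed by 0.66 (SE 0.35), and Ccnb1 by 0.48 (SE 0.36).

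Aurka, Aurkb and Plk1 are the kinases that build the spindle and drive its use, Bub1 and Bub1b belong to the spindle checkpoint, and Melk is a kinase made mostly by dividing cells. Their log2 fold changes ran from 0.29 (Bub1b) to 0.61 (Melk). Plk1 had both the smallest p and the highest level per kilobase. Its CPM ran from 1.64 over 2.35 to 3.94 in ac-WT and from 1.87 over 3.88 to 4.72 in ac-CYB5R3-KO hearts, which overlapped at both ends. The hearts differed by 0.49 on the log2 scale (SE 0.25, adjusted p = 0.390).

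Cdc20 is the cofactor that switches on the APC/C at the end of metaphase, and Ube2c is the ubiquitin-conjugating enzyme that works with it. Cdc20 ran from 1.64 over 3.29 to 5.86 CPM in ac-WT and from 3.09 over 5.40 to 8.19 CPM in ac-CYB5R3-KO hearts. The fitted difference was 0.63 on the log2 scale (SE 0.29, unadjusted p = 0.0506, adjusted p = 0.341). Ube2c was the more abundant per kilobase (2.15 ± 0.967 in ac-WT and 3.46 ± 1.33 CPM per kilobase in ac-CYB5R3-KO hearts), differing by 0.68 on the log2 scale (SE 0.34, adjusted p = 0.371).

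**Figure D2:**
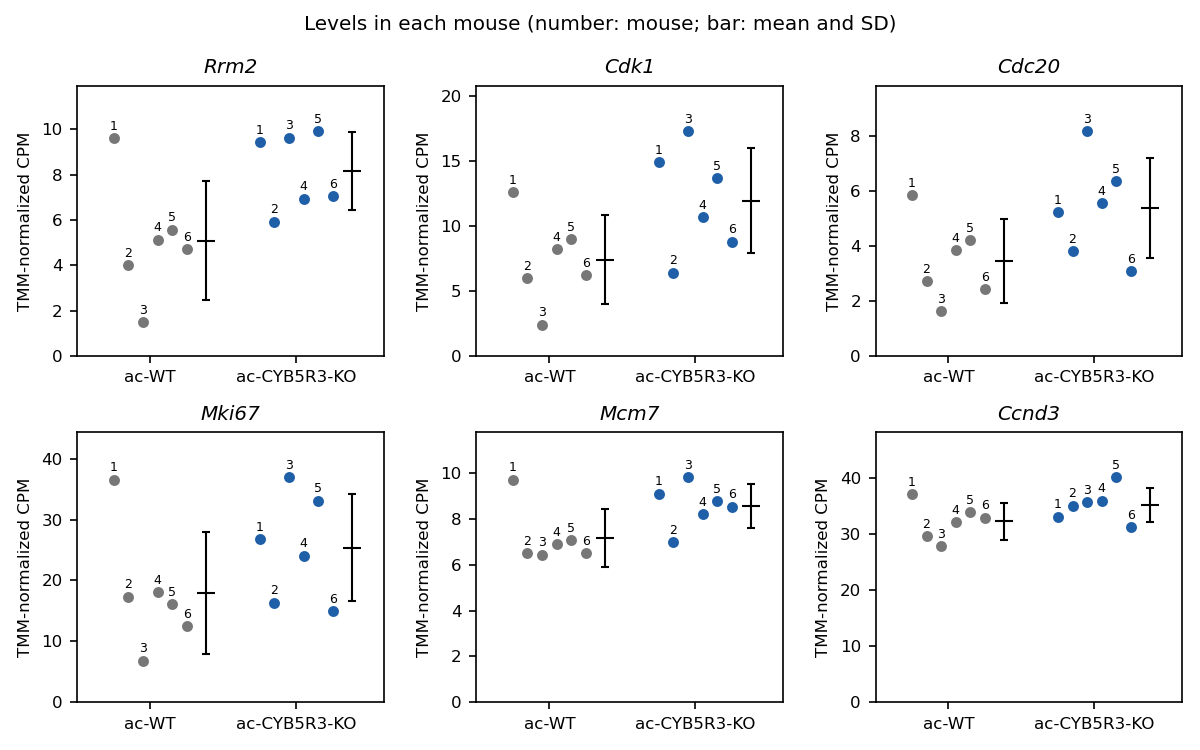
TMM-normalized CPM of 6 members in each heart. Points are mice, numbered as in the labels, gray for ac-WT and blue for ac-CYB5R3-KO, and the bars give the mean and SD of 6 mice. For Rrm2, Cdk1, Cdc20, Mki67 and Mcm7 ac-WT mouse 1 lies within the ac-CYB5R3-KO range, and Ccnd3 shows the narrowest ac-WT range of the 45 members (1.33 times from lowest to highest).

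Mki67 codes for Ki-67, a coat protein of mitotic chromosomes that is widely used to mark dividing cells. Its CPM ran from 6.85 over 16.7 to 36.5 in ac-WT and from 15.0 over 25.4 to 36.9 in ac-CYB5R3-KO hearts. The highest hearts of both groups thus held nearly the same level, and the log2 fold change was 0.50 (SE 0.33, adjusted p = 0.497, two-sided exact permutation p = 0.156). Cenpe, a kinetochore motor, had the smallest p of the chromosome and kinetochore genes, with 1.17 to 4.69 CPM (median 3.23) in ac-WT and 2.24 to 6.82 CPM (median 4.66) in ac-CYB5R3-KO hearts. On the log2 scale the difference was 0.59 (SE 0.33, adjusted p = 0.428). Top2a, a topoisomerase that untangles chromosomes, and Birc5, the survivin subunit of the chromosomal passenger complex, differed by 0.55 (SE 0.37) and 0.49 (SE 0.29). Cenpf, a large kinetochore protein, departed from the others. It ran from 2.54 over 5.32 to 12.6 CPM in ac-WT and from 3.01 over 6.32 to 10.1 CPM in ac-CYB5R3-KO hearts, and differed on the log2 scale by -0.0085 (SE 0.37). Its highest level was in ac-WT mouse 2, a heart that was highest of its group for this member alone, and without mice 2 and 3 the log2 fold change was 0.24.

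The spindle and cytokinesis genes had a median log2 fold change of 0.52. Tpx2, a spindle factor that activates Aurora A, had the smallest p and the highest level per kilobase of these 9 genes. It ran from 1.75 over 5.55 to 10.3 CPM in ac-WT and from 5.45 over 8.92 to 11.5 CPM in ac-CYB5R3-KO hearts, and differed on the log2 scale by 0.61 (SE 0.33, adjusted p = 0.405). The lowest ac-CYB5R3-KO heart thus lay near the ac-WT median. The kinesins Kif11, Kif15, Kif20a and Kif23, motors of the spindle and of the midzone between separating chromosomes, differed by 0.42 to 0.52. Nusap1, a spindle microtubule protein, differed by 0.56 (SE 0.32). Prc1, which bundles midzone microtubules, had the largest log2 fold change of the 45 members at 0.69 (SE 0.39), and Anln and Ect2, which organize the contractile ring, differed by 0.56 and 0.41.

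The bases before the start of these genes are shown for Mki67, Cdk1, Cdc20, Rrm2 and Mcm7, because they hold examples of the short motifs known from cell cycle promoters. The motifs were searched as exact letters on both strands. The CHR (cell cycle genes homology region), where the MuvB core of the DREAM complex binds, was searched as TTTGAA or TTTAAA, the CCAAT box of the factor NF-Y as CCAAT, and the E2F site as TTTGGCGC, TTTCCCGC, TTTGCCGC or TTTCGCGC. The sequences are RefSeq windows of the GRCm38.p6 build, 5′ to 3′ on the gene's strand, from 250 bases before the start to 30 bases after it, with every match in capitals. The windows are chr7:135716350-135716629 on the minus strand for Mki67 (ENSMUSG00000031004), chr10:69352883-69353162 on the minus strand for Cdk1 (ENSMUSG00000019942) and chr4:118437314-118437593 on the minus strand for Cdc20 (ENSMUSG00000006398). Those of Rrm2 (ENSMUSG00000020649) and Mcm7 (ENSMUSG00000029730) are chr12:24708004-24708283 on the plus strand and chr5:138171854-138172133 on the minus strand.
Mki67: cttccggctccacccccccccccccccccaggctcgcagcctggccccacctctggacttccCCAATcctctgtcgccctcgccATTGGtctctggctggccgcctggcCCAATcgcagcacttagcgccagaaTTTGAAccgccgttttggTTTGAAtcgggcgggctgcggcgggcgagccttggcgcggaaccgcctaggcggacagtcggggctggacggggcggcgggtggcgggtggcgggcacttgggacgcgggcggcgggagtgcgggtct
Cdk1: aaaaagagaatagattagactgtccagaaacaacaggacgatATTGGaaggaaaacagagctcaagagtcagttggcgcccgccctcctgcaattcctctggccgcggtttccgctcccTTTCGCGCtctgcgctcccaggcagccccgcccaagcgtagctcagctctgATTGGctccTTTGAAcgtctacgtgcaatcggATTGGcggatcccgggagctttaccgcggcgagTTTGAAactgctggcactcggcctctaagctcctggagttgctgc
Cdc20: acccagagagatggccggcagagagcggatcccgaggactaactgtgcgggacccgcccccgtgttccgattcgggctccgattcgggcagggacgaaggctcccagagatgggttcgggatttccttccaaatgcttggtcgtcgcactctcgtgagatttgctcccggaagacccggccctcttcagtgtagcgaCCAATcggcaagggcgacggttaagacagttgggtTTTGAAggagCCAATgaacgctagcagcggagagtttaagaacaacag
Rrm2: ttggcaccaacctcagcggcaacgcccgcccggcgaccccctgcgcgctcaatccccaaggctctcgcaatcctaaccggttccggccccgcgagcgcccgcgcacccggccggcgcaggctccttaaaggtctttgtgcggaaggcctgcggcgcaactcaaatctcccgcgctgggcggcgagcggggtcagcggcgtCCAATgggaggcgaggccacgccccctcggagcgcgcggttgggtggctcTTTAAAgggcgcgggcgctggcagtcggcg
Mcm7: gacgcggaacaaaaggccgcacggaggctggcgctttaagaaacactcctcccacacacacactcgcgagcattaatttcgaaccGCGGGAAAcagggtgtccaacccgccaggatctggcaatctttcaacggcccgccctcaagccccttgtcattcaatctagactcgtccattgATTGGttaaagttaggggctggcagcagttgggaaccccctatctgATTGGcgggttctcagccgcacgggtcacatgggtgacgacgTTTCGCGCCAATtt

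In Mki67 a pair of CHR matches begin 116 and 98 bases before the start, downstream of CCAAT boxes at 188, 166 and 141 bases. Cdc20 holds a CHR match 18 bases before the start between CCAAT boxes at 53 and 8 bases, and Cdk1 holds CHR matches at 71 and 15 bases, CCAAT boxes at 208, 80 and 48 bases and an E2F match at 131 bases. In Rrm2 the CHR letters begin at the start itself, with a CCAAT box 50 bases before it. Mcm7 has no CHR match in this window. Its E2F matches begin 165 bases before and 16 bases after the start, and the latter shares 1 base with a CCAAT box. A window of 300 bases, from 250 before to 50 after the start, was listed for 36 of the 45 members, and 1 window was taken for each gene. The CHR letters were found in 24 of the 36 (66.7%), beside 27.8% of 27025 genes, and the CCAAT box in 26 (72.2%), beside 37.9%. Both were found in 20 of 36 windows (55.6%), beside 10.9% of all genes. The E2F letters were found in 7 windows (19.4%), beside 2.32% of all genes. The matches were unevenly spread over the roles, with E2F matches in 5 of 7 windows of licensing and clamp genes and in 2 of the others. CHR matches were in 5 of 5 windows of chromosome and kinetochore genes and 6 of 7 of spindle and cytokinesis genes. They were in 3 of 3 of Cdk1 and its cyclins, 2 of 2 of Cdc20 and Ube2c and 3 of 5 of the kinases. Licensing and clamp genes had them in 2 of 7, nucleotide genes in 1 of 3, and G1 cyclins and the E2F and FOXM1 factors in 1 of 2 each. These are matches of letters and were not tested against the levels.

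How many members lay past an unadjusted p of 0.05 depended on a few mice. Without ac-WT mouse 1, the heart with the highest levels of its group, 31 members were higher at an unadjusted p under 0.05, where 6.12% of 18011 genes were, and the median log2 fold change of the members was 0.70. Rrm2, Mcm7 and Prc1 then had log2 fold changes of 0.96, 0.36 and 1.13, and the lowest adjusted p of any member was 0.124. Without ac-WT mice 2 and 3, the hearts with the lowest TMM factors, 0 members had an unadjusted p under 0.05, where 3.44% of 18299 genes were higher, and the median log2 fold change was 0.24. All 45 members had higher fitted means in ac-CYB5R3-KO hearts in both fits, and Rrm2 differed by 0.39 (SE 0.22, unadjusted p = 0.0984) in the second. With libraries scaled by their total counts in place of TMM, 11 members were higher at an unadjusted p under 0.05, where 9.45% of all genes were, and the median of the members was 0.68. That scaling moved the median of all genes to 0.26, so that the members' median lay 0.42 above that of all genes, against 0.46 with TMM. Leaving out ac-CYB5R3-KO mouse 2 or mouse 6, the lowest of their group for most members, gave 11 and 7 members, where 4.28% and 4.77% of all genes were higher. Leaving out ac-WT mouse 5 gave 2, where 5.74% of all genes were higher, and leaving out ac-WT mouse 2 or 6 or ac-CYB5R3-KO mouse 1, 3 or 5 gave 0, where 3.78% to 7.08% were.

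**Figure D3:**
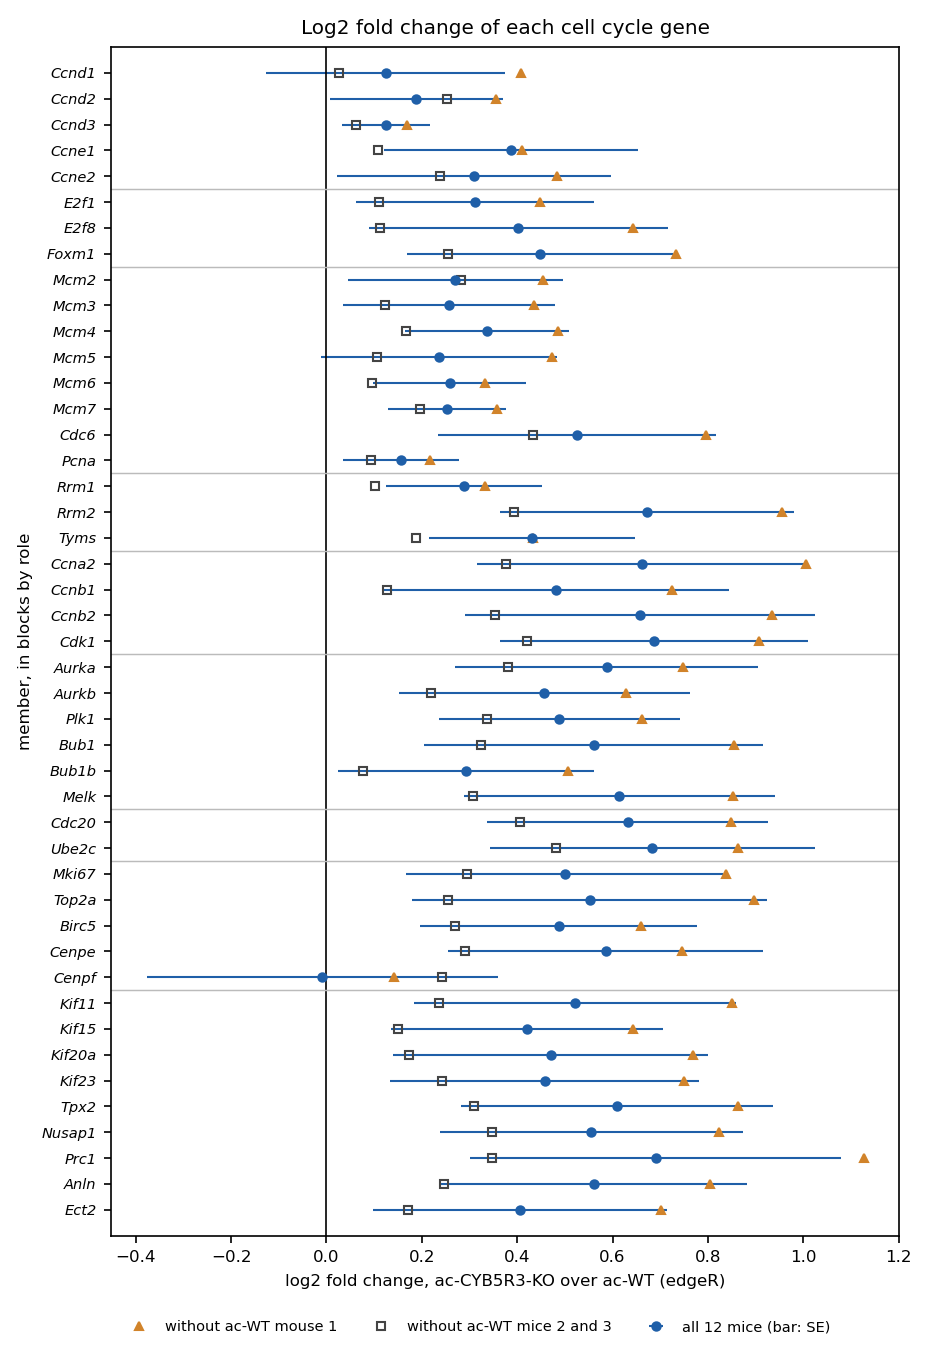
Log2 fold change of each of the 45 members (ac-CYB5R3-KO over ac-WT, edgeR), in blocks by role. Circles with bars are the estimates and standard errors from all 12 mice, triangles the estimates without ac-WT mouse 1 and open squares those without ac-WT mice 2 and 3. The medians are 0.46, 0.70 and 0.24, and the G1 cyclins and Mcm genes lie closer to 0 than most mitosis genes.

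Members varied together from heart to heart within the groups, and the correlations were higher among the genes of G2 phase and mitosis. Correlations were taken over the 12 mice on log2(CPM + 1) after the mean of each group was subtracted. They are descriptions, since the values of a mouse share one library and one scaling factor. The median Pearson r of the 990 pairs of members was 0.75 (Spearman rho 0.68). By role it was 0.94 for Cdk1 and its cyclins, 0.92 for the spindle and cytokinesis genes, 0.89 for the kinases and for the chromosome genes, 0.77 for the licensing and clamp genes and 0.22 for the G1 cyclins. With Mki67, 26 of the other 44 members (59.1%) had r above 0.8, beside 1.05% of all other genes tested, and their median was 0.87, beside -0.029. By Pearson r, Kif23 and Bub1 followed Mki67 most closely (r = 0.97 and 0.96, rho = 0.94 and 0.98), and Ccne2 and Ccnd1 least (r = 0.42 and 0.45, rho = 0.34 and 0.084). Without ac-WT mouse 3 and ac-CYB5R3-KO mouse 3, the hearts farthest from the median of all 12 mice, the median r of all pairs was 0.69. That distance was taken without subtracting the group means. It left in ac-WT mouse 1, the highest of its group for 41 members, and the correlations were not taken without that heart.

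**Figure D4:**
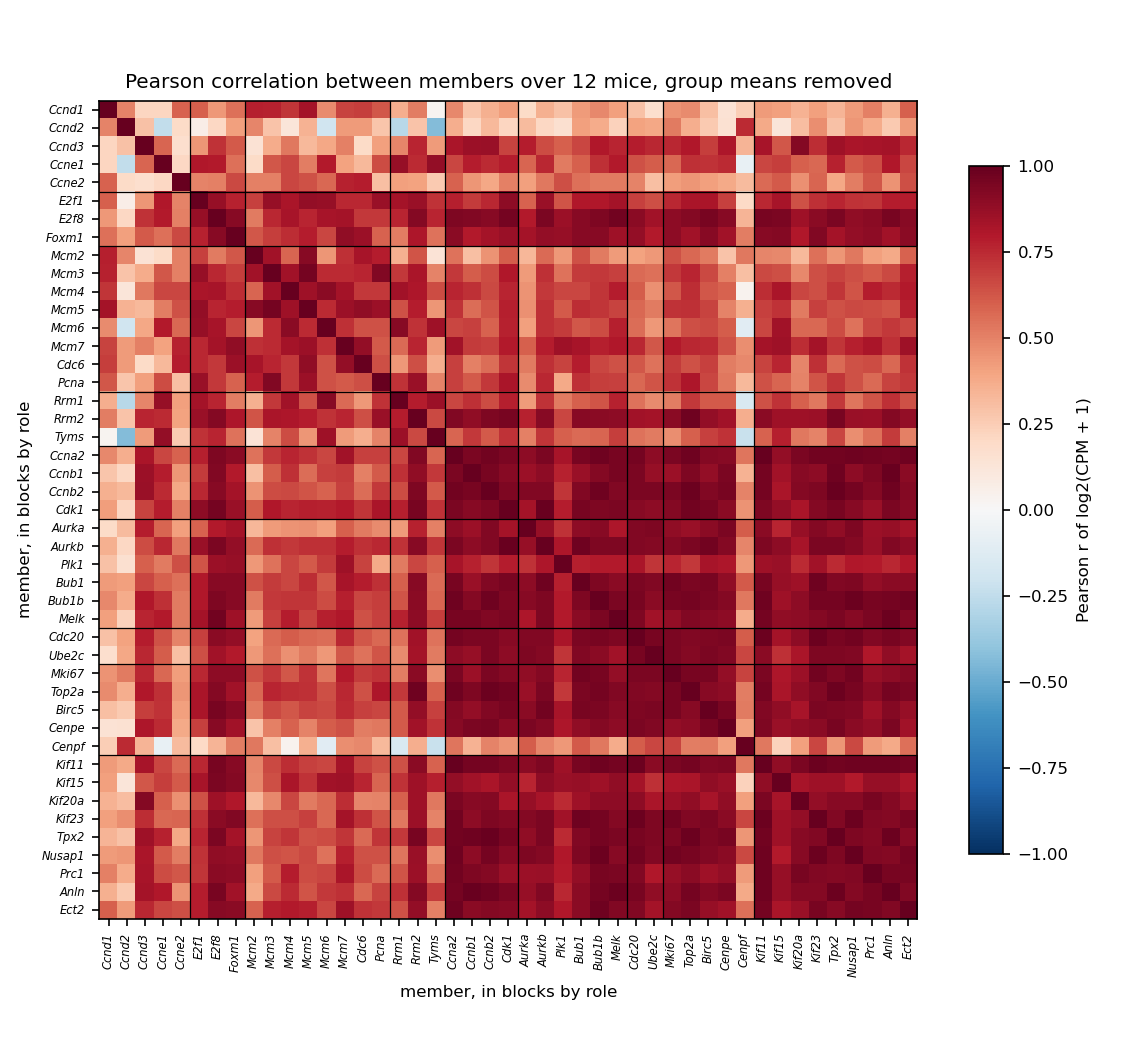
Pearson correlation between each pair of the 45 members over 12 mice, on log2(CPM + 1) with group means subtracted. Rows and columns follow the same order in blocks by role, and the scale runs from -1 (blue) to 1 (red). The late blocks, from Ccna2 to Ect2, are mostly deep red, with the palest rows for Cenpf and Plk1 (median r with the other members of 0.44 and 0.75, against 0.82 or more for the rest of these blocks), and the G1 cyclins are pale as well (median r of 0.22 among themselves).

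The Mcm genes and the late genes did not follow one order across the hearts. The summed level of Mcm2 to Mcm7 was 31.9 to 66.1 CPM (median 43.4) in ac-WT and 38.6 to 67.6 CPM (median 55.2) in ac-CYB5R3-KO hearts. That of the 26 genes of G2 phase and mitosis was 46.7 to 218 CPM (median 111) in ac-WT and 104 to 254 CPM (median 172) in ac-CYB5R3-KO hearts. Both sums were lowest in ac-WT mouse 3. In ac-CYB5R3-KO mouse 6 the Mcm sum, 58.6 CPM, was the third highest of its group, while the mitosis sum, 104 CPM, was the lowest. In mouse 5 of the same group the Mcm sum was 50.8 CPM and the mitosis sum 215 CPM. The median r was 0.83 among the Mcm genes, 0.92 among the 26 late genes and 0.66 between the sets. It was 0.80, 0.87 and 0.52 without the pair of hearts named above, with ac-WT mouse 1 kept.

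**Figure D5:**
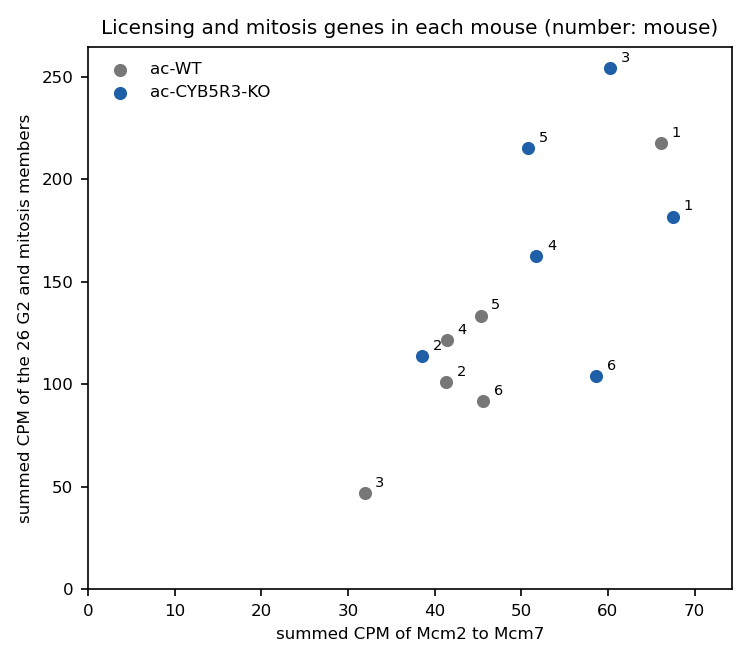
Summed TMM-normalized CPM of the 26 members of G2 phase and mitosis (vertical axis) against that of Mcm2 to Mcm7 (horizontal axis) in each heart, gray for ac-WT and blue for ac-CYB5R3-KO, with mice numbered. The ac-CYB5R3-KO mice 5 and 6 have similar Mcm sums (50.8 and 58.6 CPM) and mitosis sums of 215 and 104 CPM, and ac-WT mouse 3 is lowest on both axes.

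Other genes of the cycle were taken from lists by function, and the lowest adjusted p of the 157 tested was 0.184 in edgeR's test. At an unadjusted p under 0.05, 13 were higher and 9 lower, beside 4.91% and 9.73% of all genes. Histone genes made up 6 and 8 of these. The split of the 157 genes was 36 higher and 2 lower with total counts in place of TMM and 44 and 9 without ac-WT mouse 1. It was 2 and 1 without ac-WT mice 2 and 3, and 1 and 1 with a surrogate variable. The shares of all genes that were higher were 9.45%, 6.12%, 3.44% and 2.72% in the same order. With total counts, 1686 of the 2053 genes past the threshold were higher, against 877 of 2614 with TMM. Among the genes named here, Cdkn1c and Cdkn2b alone stayed past the threshold without ac-WT mice 2 and 3, at -0.49 (SE 0.20, unadjusted p = 0.0282) and 0.54 (SE 0.14, unadjusted p = 0.00222) on the log2 scale in edgeR's test. The inhibitors of cyclin-dependent kinases gave 1 in each direction of 7. Cdkn1c, which codes for p57, was 7.57 to 18.7 CPM (median 11.8) in ac-WT and 5.20 to 8.72 CPM (median 6.56) in ac-CYB5R3-KO hearts. The hearts differed by -0.79 on the log2 scale (SE 0.22, unadjusted p = 0.00335, adjusted p = 0.184). Cdkn2b, which codes for p15, was 0.278 to 2.17 CPM in ac-WT and 2.33 to 2.94 CPM in ac-CYB5R3-KO hearts, without overlap. The fitted difference was 0.96 on the log2 scale (SE 0.38, adjusted p = 0.268), and its two-sided exact permutation p of 0.00216 is the smallest that 6 against 6 mice allow. Cdkn2a differed by 0.60 (SE 0.34) and Cdkn1a, which codes for p21, by -0.35 (SE 0.22), with 41.7 to 83.6 CPM in ac-WT and 23.6 to 68.8 CPM in ac-CYB5R3-KO hearts.

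Of 15 genes of the RB family, the E2F factors and the DREAM complex, 1 was higher and 0 lower at an unadjusted p under 0.05. E2f3, an activating E2F factor, had 4.58 to 7.22 CPM (median 5.53) in ac-WT and 6.39 to 7.69 CPM (median 7.01) in ac-CYB5R3-KO hearts, with a difference of 0.31 on the log2 scale (SE 0.12, adjusted p = 0.267). Rbl2, which codes for the pocket protein p130, and Tfdp1, the partner of E2F factors, differed by 0.31 and 0.20. Among 16 other kinases, cyclins and CDC25 phosphatases, Cdk6 was past this threshold with a log2 difference of 0.26 (SE 0.12, adjusted p = 0.341), and Cdc25c and Cdc25b differed by 0.69 and 0.38. Of 37 other replication genes, Lig1, which joins Okazaki fragments, was past it at 0.43 (SE 0.18, adjusted p = 0.294), and Tk1, which phosphorylates thymidine, differed by 0.42. Of 47 other mitosis genes 44 had higher fitted means, with a median of 0.48 that was near the 0.46 of the members. Tacc3, a spindle protein, Cks1b, a CDK subunit, and Spc25, of the kinetochore NDC80 complex, were past the threshold at 0.62 (SE 0.24), 0.37 (SE 0.15) and 0.60 (SE 0.27), with adjusted p of 0.257, 0.274 and 0.335. Without ac-WT mice 2 and 3, E2f3, Cdk6, Lig1, Tacc3, Cks1b and Spc25 differed by 0.21, 0.15, 0.25, 0.41, 0.21 and 0.35, with unadjusted p of 0.0681 (Cks1b) to 0.171 (Spc25) in edgeR's test. All these lists used the same 12 libraries as the members, and their values are no independent evidence.

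Markers of other cells moved with some of the same hearts. The 11 erythroid genes summed to 351 to 4725 CPM in ac-WT and 1482 to 12317 CPM in ac-CYB5R3-KO hearts. The highest sums were in ac-CYB5R3-KO mice 3 and 6 (12317 and 6828 CPM), of which mouse 3 was highest and mouse 6 often lowest in cell cycle genes. Of the 7 erythroid genes tested, 4 were higher at an unadjusted p under 0.05, as were 4.91% of all genes. Klf1 and Gata1, factors of red cell precursors, had at most 4 and 13 counts in a library. The 10 lymphocyte genes summed to 11.4 to 23.9 CPM in ac-WT and 18.8 to 36.3 CPM in ac-CYB5R3-KO hearts, with 4 of 9 tested higher at that threshold. The 9 genes of the thymocyte list summed to 0.944 to 3.44 and 2.86 to 5.13 CPM, with 2 of 4 tested higher. Cd8a, Cd8b1, Cd4 and Lck carried most of that sum in each heart, while Ptcra and Themis had at most 6 and 10 counts in a library. Rag2, which developing lymphocytes use to join receptor genes, was at 0 in all libraries, where 3 counts would give 0.0507 to 0.105 CPM, and Rag1 had 1 count in all. The 9 cartilage and airway genes summed to 4.41 to 41.0 CPM in ac-WT and 59.0 to 129 CPM in ac-CYB5R3-KO hearts without overlap, and 4 of 5 tested were higher. Comp and Col11a1, which code for matrix proteins, carried most of that sum in each heart, while the cartilage gene Col9a1 and the airway genes Scgb1a1, Sftpc and Cyp2f2 had 0 to 2 counts in a library. Their part in the levels of the cell cycle genes was not tested.

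Lists for other cells of the heart were also summed. None of the 9 endothelial, 11 macrophage, 7 fibroblast and 5 epicardial genes tested was past an unadjusted p of 0.05, and nor were the 3 neutrophil genes tested. The endothelial sum was 792 to 1579 CPM in ac-WT and 858 to 1557 CPM in ac-CYB5R3-KO hearts. It was highest in ac-WT mouse 1 and ac-CYB5R3-KO mouse 3, the hearts with the highest cell cycle levels of their groups. The next highest ac-WT sums were in mice 3 and 2 (1367 and 1333 CPM), of which mouse 3 was lowest for most cell cycle genes. The macrophage sum was 485 to 1838 and 806 to 1344 CPM, and the neutrophil sum 3.48 to 8.02 and 1.24 to 14.8 CPM. The fibroblast sum was 1428 to 7048 and 3682 to 5677 CPM, and ac-WT mice 2 and 3 were lowest at 1428 and 1462 CPM. The epicardial sum was 5.19 to 42.8 and 6.08 to 21.8 CPM, highest in ac-WT mouse 1 and in ac-CYB5R3-KO mouse 2, a heart often lowest in cell cycle genes. Of 7 smooth muscle and pericyte genes, which summed to 368 to 448 and 312 to 419 CPM, 1 was higher and 2 were lower at this threshold. Of the 11 cardiomyocyte genes 4 were lower and 0 higher, beside 9.73% and 4.91% of all genes tested. Their sum was highest in ac-WT mice 2 and 3 (56646 and 45190 CPM). The part of all these cells in the levels of the cell cycle genes was not tested either.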

How the data were processed

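Total RNA from 12 whole hearts, 6 ac-WT and 6 ac-CYB5R3-KO, was made into stranded libraries and read as unpaired reads. Per the paper's methods, the authors removed adapters (fastq-mcf, Trimmomatic) and mapped to mm9 using STAR, while the submitters' processing notes name STAR, featureCounts and GRCm39. The build behind the table is therefore uncertain, and the strand setting and annotation are not given in the sources used here. The deposited values are raw counts per Ensembl gene, without normalization, and were used as deposited. With strand not stated, reads of a gene and an antisense or overlapping partner cannot be told apart. Samples were grouped by the genotype in their labels, all columns were used, and mice are separate animals.

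Genes were filtered with filterByExpr (minimum count 10), scaled by TMM and tested with edgeR's quasi-likelihood test (edgeR 4.0.16, R 4.3.3), two-sided, with Benjamini-Hochberg adjustment over 17847 genes. Each member's log2(CPM + 1) was set against all 924 placements of the mice (two-sided exact permutation test, smallest p 0.00216). Levels per kilobase used the union of exons in the GENCODE annotation of NCBIM37. At 43393183 to 53754284 counts per library, a member had between 17 and 3722 counts, so that the spread between mice limits the precision of most members, and reads cannot be counted as independent molecules.

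The 45 members, 9 roles, 6 pathway lists and 11 marker lists were chosen with earlier results of these data known. In each role the member with the smallest p and that with the highest level per kilobase are given with values per group, as is every member with an unadjusted p under 0.05. Of the pathway lists, genes with p under 0.01, the 3 lowest p of each list and Cdkn1a are named, except for a gene that is not reported here. Other members are given by their fold change. Cdkn2d and Lin54 of the pathway lists and 3 marker genes were not matched by symbol and were not used. Motifs were searched in RefSeq windows of GRCm38.p6, which were not used together with coordinates of another build. Alternatives were total counts, DESeq2 1.42.0, limma-voom (limma 3.58.1), other filters, a block for the replicate number, 1 surrogate variable (sva 3.50.0), each mouse left out, ac-WT mice 2 and 3 left out and, added after seeing the data, TMM factors without mitochondrial genes and the spread within the ac-WT group without mice 2 and 3.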

Additional observations from a re-analysis of the deposited data

Results flagged for a closer look

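Each member's 6 levels per group were tested for a single heart far from the rest (Dixon's test at the 95% level). Of the 90 groups tested, 4 held such a heart, and chance alone gives about 1 in 20. All 4 were ac-WT mouse 1 as the highest heart. Its level was 7.09 CPM for Foxm1 (next heart 3.86 CPM), 8.86 CPM for Mcm5 (next 5.03 CPM), 9.71 CPM for Mcm7 (next 7.06 CPM) and 2.02 CPM for Cdc6 (next 1.08 CPM). These levels come from one library and are not independent of each other. The same heart had the highest endothelial and epicardial sums of its group, 1579 and 42.8 CPM. The next highest endothelial sum was that of ac-WT mouse 3 (1367 CPM), the lowest heart of its group for most members. The part of these cells in the levels was not tested.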

How the results depend on the processing

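No member had an adjusted p under 0.05 in any of the alternatives run, in which 2 (limma-voom, among others) to 455 (DESeq2) of all genes had one. The count of members with an unadjusted p under 0.05, 1 as reported, was 11 with total counts, 4 with DESeq2, 4 with limma-voom, 6 without the filter, 7 with the replicate block, 0 without ac-WT mice 2 and 3 and 0 with 1 surrogate variable. It was 1 with at least 10 counts in every library and 1 with TMM factors taken without mitochondrial genes, a setting added after the data were seen. Leaving out each mouse gave 0 to 31 members, the most without ac-WT mouse 1. The median log2 fold change of the members was 0.24 to 0.68 in these settings and 0.33 to 0.70 without each mouse, always above 0. All genes that were higher at this threshold made up 4.91% as reported, 9.45%, 3.38%, 5.87%, 3.92%, 6.02%, 3.44% and 2.72% in the first 7 settings as listed, 5.09% and 5.05% in the next pair and 3.75% to 7.08% without each mouse. The count of other cell cycle genes, 22 as reported, was 38 with total counts, 34 with the replicate block, 2 with 1 surrogate variable, 3 without ac-WT mice 2 and 3, and 9 (without ac-WT mouse 2) to 53 (without ac-WT mouse 1) when each mouse was left out. The count of all genes past this threshold was 2614 as reported and 2053, 2624, 1419, 1461, 1888 and 3070 in the same order.

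The log2 fold change of Cenpf turned from -0.0085 to 0.37 with total counts, 0.13 with limma-voom, 0.024 without the filter, 0.084 with the replicate block, 0.24 without ac-WT mice 2 and 3 and 0.52 with 1 surrogate variable, and ran from -0.18 to 0.28 without each mouse. That of Ccnd1 ran from -0.0040 to 0.41 without each mouse. The cause of these changes was not tested.

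Labels number the mice of both groups alike. Deviations from the group means correlated at 0.13 on average for the same number (-0.16 to 0.36, 6 pairs) and at -0.025 for the other 30 pairs, and 6 of 12 mice correlated best with their own number. Animals that share a number are not the same animal. Whether they were handled together is not stated in the labels and was not tested, and the block is given as an alternative only. A member had at least 17 counts in every library, and the spread between mice sets the width of the intervals.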

Other observations

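Histone genes, whose messages are made mainly in S phase, did not move as one group. Of 35 tested, 0 had an adjusted p under 0.05 in edgeR's test. At an unadjusted p under 0.05, 6 were higher and 8 lower in ac-CYB5R3-KO hearts, beside 4.91% and 9.73% of all genes. All 11 histone H4 genes had lower fitted means (log2 fold change -1.002 to -0.23, median -0.61), 7 of them past that threshold, whereas 12 of 13 histone H2B genes had higher ones (median 0.31), 4 past it. All 3 histone H1 genes and 4 histone H3 genes had higher fitted means, with medians of 0.42 and 0.31 and 1 of each past it, and the 4 histone H2A genes lay between -0.19 and 0.089. Hist1h4b was 0.303 to 1.40 CPM (median 0.577) in ac-WT and 0.220 to 0.464 CPM (median 0.342) in ac-CYB5R3-KO hearts (log2 fold change -1.002, SE 0.33, adjusted p = 0.216). Hist1h4f differed by -0.71 (SE 0.26) and Hist2h2be by -0.43 (SE 0.16), with adjusted p of 0.250 and 0.249. Histone genes are near-identical copies whose reads may be divided between them, so that the genes of a family are not separate measurements and each value is uncertain. The families were set side by side after their values were seen, and the difference between them was not tested. The count of histone H4 genes that were lower at this threshold, 7 as given, was 1 with total counts, 7 without ac-WT mouse 1, 0 without ac-WT mice 2 and 3 and 0 with a surrogate variable, and 10, 11, 10 and 8 of the 11 had lower fitted means. That of higher histone H2B genes, 4 as given, was 8, 1, 1 and 0 in the same order.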
